A study of Mus musculus with 12 samples.

Results

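The normal retinas of 129 and B6 mice were compared before any damage or culture. Neural retina freed of the lens, iris, ciliary body, cornea, sclera and pigmented epithelium was taken, per the labels, from male 129 (129X1/SvJJmsSlc) and B6 (C57BL/6NCrSlc) mice 10 weeks of age, with no treatment, and its RNA was hybridized to Affymetrix mouse genome arrays, 1 retina sample to an array. Of the 12 arrays of the study, the 4 of normal retina were chosen by their labels, 2 from 129 and 2 from B6. The other 8 arrays came from explants of the same strains cultured for 3 days (3DIV) with vehicle or with 15 µM CHIR99021, an inhibitor of the kinase GSK3, and were used to estimate the spread and to see which strain differences were also found in culture. Both arrays of each group are labelled as biological replicates, but it is not stated whether the 2 retinas were those of 1 animal, so p-values measure the spread between these samples. Coat color and every other inherited trait of the strains vary along with the comparison.

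The neural retina holds rods and cones, which absorb light, bipolar, horizontal, amacrine and ganglion cells, which process and relay the signal, and Müller glia, which span the tissue and support it. Microglia, the resident macrophages, survey the retina and express the C1q chains of the complement system. Interferons induce a set of antiviral and antigen-presenting genes in most cell types, and many of these genes are transcribed at a low level without infection. In bulk tissue, fewer cells of a type and less RNA per cell cannot be told apart.

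The defining markers of rods and Müller glia were high on all 4 arrays. Gnat1, the rod transducin, had intensities of 13889 and 13285 in 129 and 15586 and 15860 in B6, and Glul, the glutamine synthetase of Müller glia, had 11966 and 11972 in 129 and 11506 and 11420 in B6. The median of an array lay between 68.8 and 70.7 across the 12 arrays. The 2 arrays of a strain correlated at a Pearson r of 0.9966 in 129 and 0.9965 in B6 across probe sets, which are not independent replicates. More than 2-fold differences between the arrays of a strain were found at 85 probe sets in 129, of which 82 were higher on replicate 2, and at 23 probe sets in B6. Replicate 2 of 129 stood apart by its high lens crystallins, and replicate 1 of 129 by its low genes of the pigmented epithelium, whose summed intensity was 16409 and 25792 in 129 and 27792 and 24314 in B6. Results that rest on either array are given without it as well.

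Across 45037 probe sets, 2735 were higher in 129 (6.07%) and 2453 were lower (5.45%), 11.5% of those tested in all. Arrays of the strains did not overlap at 52.6% of probe sets. A probe set, the group of short probes that gives 1 value, passed at a Benjamini-Hochberg adjusted p under 0.05 in limma, fitted to all 6 groups, and differences are log2 values of 129 minus B6, given with their standard error (SE). At least 2-fold differences were found at 313 higher (0.695%) and 419 lower (0.930%) probe sets. The median size among those that passed was 0.51 on the log2 scale, and the median SE over all probe sets was 0.10. Centring the arrays on housekeeping genes moved the median difference of all probe sets from 0.01 to 0.20 and the split to 13527 higher and 1301 lower, although 5 of the 11 housekeeping genes (B2m, Tfrc, Actb, Sdha and Pgk1) were themselves lower in 129. A total of 2226 probe sets (4.94%), 1108 higher and 1118 lower, passed in the same direction without any single one of the 12 arrays, with strains that did not overlap, and are called steady here.

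**Figure D1:**
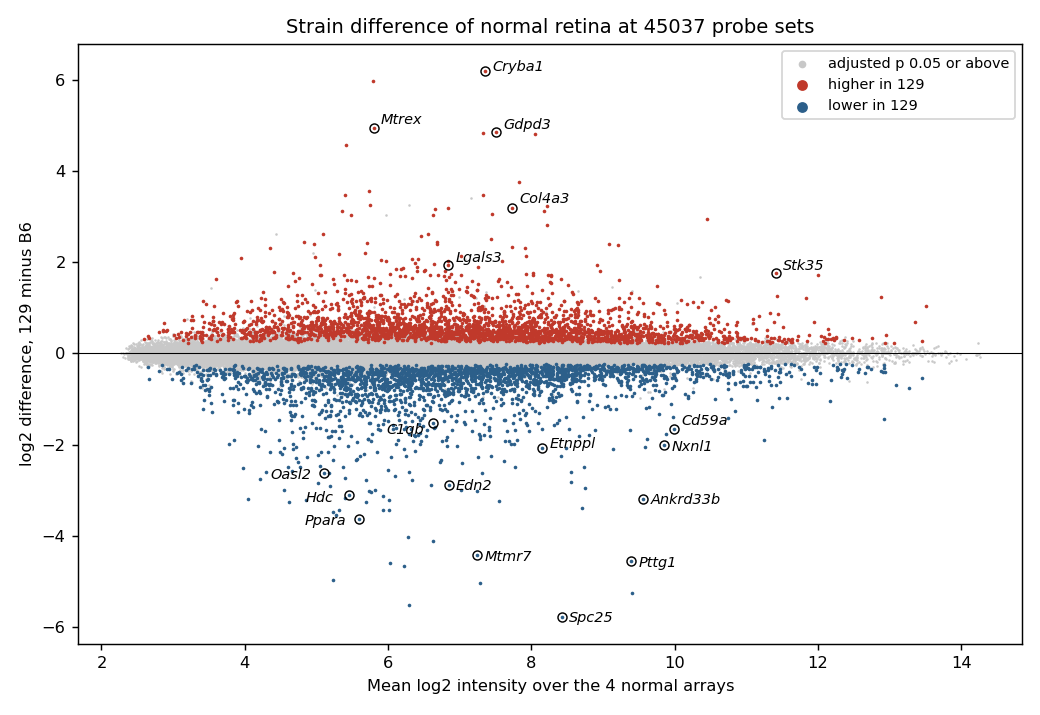
Strain difference against level. The horizontal axis is the mean log2 intensity of the 4 normal arrays and the vertical axis the log2 difference of 129 minus B6, each point is 1 of 45037 probe sets, and colored points passed at an adjusted p under 0.05. Circled probe sets are labelled with their genes, Cryba1 at 6.19 being the highest and Spc25 at -5.77 the lowest of those labelled.

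A gene measured by several probe sets could be read more than once. Of 9010 genes with at least 2 probe sets, 2406 had at least 1 that passed. All probe sets passed in the same direction for 86 genes that were higher in 129 and 98 that were lower, whereas exactly 1 passed for 1705 genes, 70.9% of the 2406, and probe sets passed in opposite directions for 134. Of 424 probe sets with a difference of at least 2-fold in such genes, 49.5% had another probe set of the gene that passed in the same direction, 15.1% had one that passed in the opposite direction, and 40.8% had none that passed.

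The genes higher in 129 at all of their probe sets were led by Col4a3, a chain of the collagen IV of basement membranes. It had intensities of 577 and 712 in 129, against 62.9 and 78.4 in B6 (log2 difference 3.19, SE 0.14, adjusted p = 1.57e-07), and its other probe set differed by 1.97. Stk35, a kinase, was among the most abundant of these transcripts, at 4982 and 5072 in 129 and 1379 and 1592 in B6 (1.76, SE 0.12, adjusted p = 3.92e-06). Cap1, which binds actin and promotes its turnover, had 604 and 599 in 129, against 178 and 212 in B6 (1.63, SE 0.14, adjusted p = 3.21e-05). In each of these 3 genes the arrays of the strains lay far apart and those of a strain close together. The choice of genes with a steady probe set favors this. Fn1, the matrix protein fibronectin, was at 134 and 138 in 129 and at 40.0 and 44.4 in B6 at its more different probe set (1.69, SE 0.13, adjusted p = 1.44e-05) and differed by 0.65 at the other. Mttp, which loads lipid onto lipoproteins, had 243 and 249 in 129 and 110 and 79.4 in B6 (1.40, SE 0.14, adjusted p = 1.13e-04). Igsf9, an adhesion molecule of the immunoglobulin family, had 1007 and 991 in 129 and 420 and 443 in B6 (1.21, SE 0.09, adjusted p = 1.07e-05). Tmem26 was higher in 129 as well, but its 129 arrays differed from each other, at 93.4 and 46.4 against 15.8 and 14.5 in B6 (2.12, SE 0.26, adjusted p = 3.31e-04). Golm2, Cmtm5, Rskr, A330076H08Rik and 2900052N01Rik completed the 12 genes with the largest median difference, at 0.55 to 2.40 over their probe sets.

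Among the genes lower in 129 at all of their probe sets, the largest differences belonged to Spc25, a subunit of the Ndc80 complex that links kinetochores to the spindle, and to Pttg1, the securin that holds separase inactive until anaphase. Spc25 had intensities of 42.3 and 50.9 in 129, against 2327 and 2759 in B6 (log2 difference -5.77, SE 0.16, adjusted p = 1.06e-08), and differed by -1.64 at its other probe set. Pttg1 had 137 and 139 in 129 and 3531 and 3004 in B6 (-4.56, SE 0.12, adjusted p = 1.06e-08), with -5.04 and -3.22 at its other probe sets. Both transcripts were thus among the abundant ones in the adult B6 retina. Most other genes of DNA replication and mitosis did not pass. Of 53 such genes, 3 were higher (5.66%, against 5.41% of all 18193 genes read at 1 probe set each) and 7 were lower (13.2%, against 5.83%), with a median of -0.09, and Mki67, a marker of dividing cells, was near background at 17.8 and 22.2 in 129 and 23.6 and 21.3 in B6 (-0.17, adjusted p = 0.508).

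Enzymes and a nuclear receptor of metabolism were also lower in 129 at every probe set. Ppara, the receptor that drives fatty acid oxidation, had 14.2 and 13.2 in 129 and 155 and 189 in B6 (log2 difference -3.64, SE 0.16, adjusted p = 1.65e-07), and -2.16 and -1.86 at its other 2 probe sets. Etnppl, a lyase of phosphoethanolamine, had 19.2 and 22.3 in 129 and 166 and 197 in B6 (-3.13, SE 0.11, adjusted p = 5.46e-08). Hdc, the histidine decarboxylase that makes histamine, had 14.6 and 15.3 in 129 and 117 and 142 in B6 (-3.11, SE 0.11, adjusted p = 5.46e-08). At these probe sets the 129 intensities lay below the 25th percentile over all probe sets, but other probe sets read Etnppl at 138 and 139 and Hdc at 56.4 and 58.7 in 129. Synm, which encodes the intermediate filament protein synemin, had 59.0 and 63.6 in 129 and 610 and 546 in B6 (-3.24, SE 0.13, adjusted p = 8.08e-08). Cd59a, which blocks the membrane attack complex of complement, had 553 and 601 in 129 and 1868 and 1747 in B6 (-1.65, SE 0.08, adjusted p = 2.57e-07), and its other probe set gave -1.67. Mtmr7, a phosphoinositide phosphatase, differed by -4.43 at 1 probe set and by -0.55 at the other. Abhd14a, Eps8l1, Cldn34c1 and the interferon-inducible Gbp2 completed the 12, at -1.01 to -2.47 over their probe sets.

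**Figure D2:**
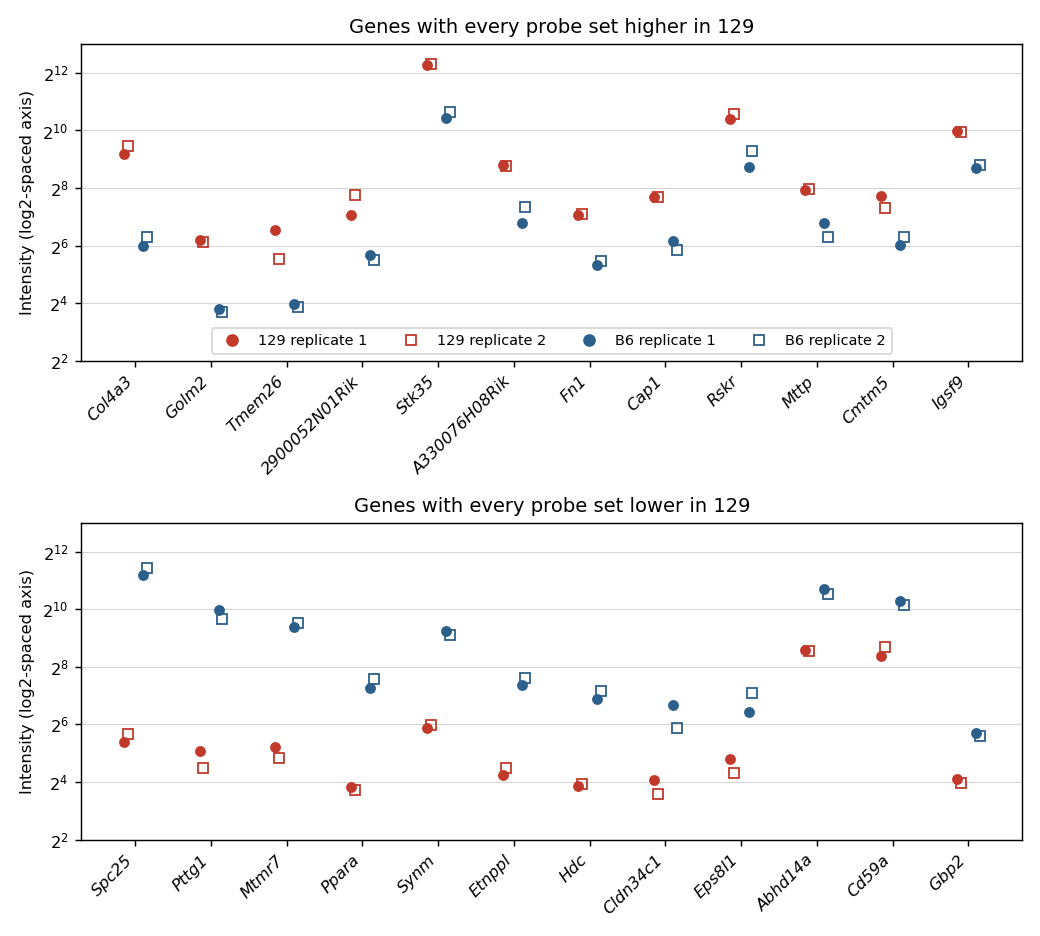
Genes with every probe set higher (top) or lower (bottom) in 129. The vertical axis is the intensity on a log2-spaced axis, red points are the 2 arrays of 129 and blue points the 2 arrays of B6, and for each gene the probe set with the largest difference is shown. No gene shown has overlapping strains, but the choice of genes asked for a steady probe set, which requires this. Spc25 stands at 42.3 and 50.9 in 129, against 2327 and 2759 in B6.

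Where only 1 probe set of a gene passed, the difference could be as large as in the genes above. For Mtrex, whose helicase feeds RNA to the exosome, 1 probe set had 308 and 310 in 129, against 9.27 and 10.8 in B6 (log2 difference 4.95, SE 0.11, adjusted p = 4.45e-09), while the probe set that read Mtrex at the highest level gave 874 and 809 in 129 and 851 and 865 in B6 (-0.03, SE 0.07, adjusted p = 0.846). Map1b, a microtubule-associated protein of neurons, had 533 and 537 in 129 and 110 and 105 in B6 at 1 probe set (2.31, SE 0.13, adjusted p = 1.32e-06), but 2355 and 2371 in 129 and 2226 and 2386 in B6 at its most abundant one (0.04, SE 0.13, adjusted p = 0.898). These differences hold for the probe set and not for the gene as a whole. In the opposite direction, 1 probe set of Ankrd33b had 256 and 244 in 129 and 2035 and 2564 in B6 (-3.19, SE 0.15, adjusted p = 3.32e-07), and another had 2932 and 2648 in 129 and 2169 and 2191 in B6 (0.35, SE 0.11, adjusted p = 0.0603). Grik1, a kainate receptor subunit of OFF bipolar cells, and Galc, the lysosomal galactosylceramidase, were lower at 1 probe set each, by -3.04 and -3.26, with the others between -0.17 and 0.05. Spata9, Lats1, Cuedc1, Dzip1 and Lman1 showed the same pattern, with 2.39 to 4.58 in the 3 that were higher and -3.43 in both that were lower, and -0.19 to 0.38 at their other probe sets.

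Genes read by a single probe set could not be checked in this way. Besides lens crystallins, the largest steady differences above 0 were at Gdpd3, a phosphodiesterase of lysophospholipids, with 1072 and 882 in 129 and 29.9 and 38.1 in B6 (log2 difference 4.85, SE 0.21, adjusted p = 1.52e-07), Rtkn2 (3.26) and Tmem87a (3.12). Those below 0 were at the predicted genes Gm4792 (-3.38), Gm5148 (-3.25) and Gm10033 (-2.99), the zinc finger gene Zfp874a (-2.91), and Edn2 (-2.88).

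Lens crystallins were far above the B6 arrays on replicate 2 of 129, and less far on replicate 1. In the lens list 20.8% were higher in 129, against 5.41% of all genes. Cryba1, a structural crystallin of lens fibers, had intensities of 198 and 9856 in 129 and 17.9 and 20.4 in B6 (log2 difference 6.19, SE 1.22, adjusted p = 0.00743), and Cryaa, the crystallin chaperone, had 361 and 5421 in 129 and 46.6 and 53.6 in B6 (4.81, SE 0.85, adjusted p = 0.00389). Of 24 lens genes, 5 were higher in 129 and none was lower, with a median of 1.27, and the summed intensity of the list was 2678 and 37407 in 129 and 1488 and 1670 in B6. Mip, the aquaporin of lens fibers and a defining marker, had 19.6 and 135 in 129 and 19.1 and 19.7 in B6, so that replicate 1 lay within the range of B6. Without replicate 2 of 129, 6 lens genes were higher, with Cryba1 at 3.38 and Cryaa at 2.85, so that replicate 1 alone also stood above B6 for these. The 5 numbered 16 without replicate 1 of 129, 2 without any single array of normal B6, and 3 without any single array of B6 at 3DIV with vehicle. In the explants the lens genes did not differ at an adjusted p under 0.05, Cryba1 standing at -0.12 with vehicle. The part of lens tissue in these values was not tested.

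Genes of the pigmented epithelium and of melanocytes also varied between the 129 arrays. In this list 29.6% were lower in 129 and 3.70% higher, against 5.83% and 5.41% of all genes. Ttr, the transthyretin made by the pigmented epithelium, had 3369 and 8334 in 129 and 9057 and 7422 in B6, and Rpe65, its retinoid isomerase, had 301 and 911 in 129 and 603 and 484 in B6, and neither passed (adjusted p = 0.364 and 0.96), although another probe set of Ttr did (-1.01, adjusted p = 0.0457). Some genes of melanin synthesis were lower in 129. Dct, the dopachrome tautomerase, had 107 and 190 in 129 and 546 and 332 in B6 (log2 difference -1.57, SE 0.28, adjusted p = 0.00404), Tyr, the tyrosinase, had 20.5 and 27.8 in 129 and 57.2 and 57.0 in B6 (-1.26, SE 0.12, adjusted p = 6.20e-05), and Pmel, the fibril protein of melanosomes, had 75.0 and 76.3 in 129 and 130 and 154 in B6 (-0.91, SE 0.09, adjusted p = 1.01e-04). The strains did not overlap for any of the 3 at these probe sets, which being steady requires. The other 2 probe sets of Tyr stood nearer to B6, at -0.37 and -0.30. Tyrp1, another enzyme of the pathway, had 43.3 and 62.2 in 129 and 51.6 and 57.7 in B6 and did not pass (-0.07, SE 0.15, adjusted p = 0.82). Of 27 listed genes, 8 were lower and 1 was higher, with a median of -0.32, and the 8 numbered 4 without replicate 1 of 129, the array with the low Ttr, or without replicate 1 of B6. Rpe65 was at 27.7 and 28.7 in 129 and 20.4 and 23.1 in B6 after 3 days of culture with vehicle. There, 1 gene of the list was lower in 129 and none was higher (median -0.06), against 10.2% and 10.8% of all genes. Dct, Tyr and Pmel stood at 0.17, -0.10 and -0.16 with vehicle and did not pass.

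**Figure D3:**
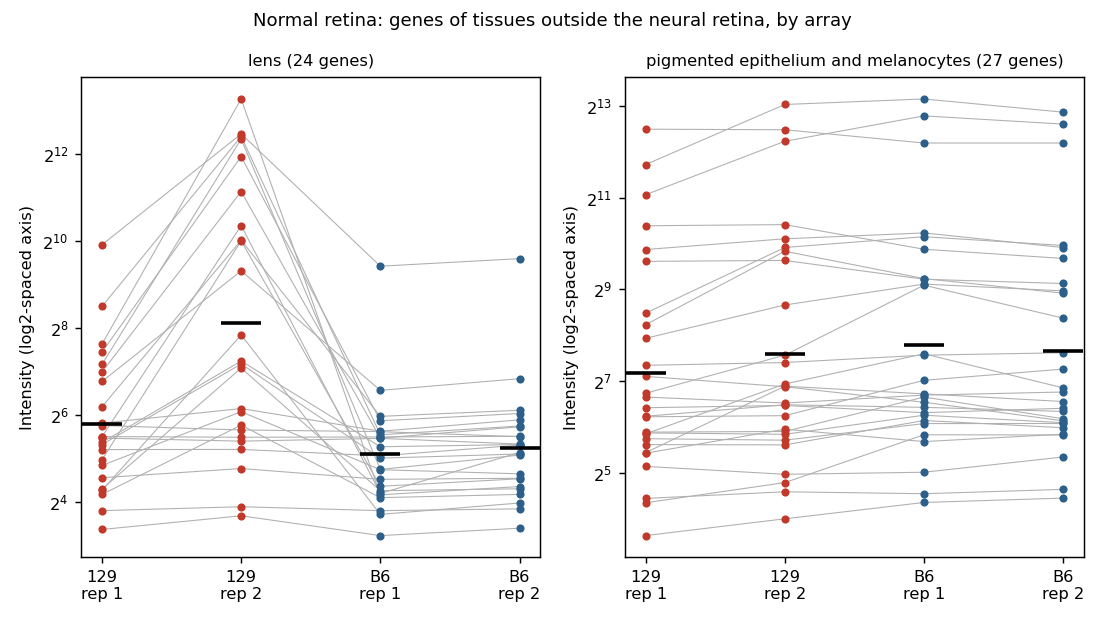
Genes of the lens (left) and of the pigmented epithelium and melanocytes (right) on the 4 arrays of normal retina. The vertical axis is the intensity on a log2-spaced axis, grey lines join the values of 1 gene, red points are 129, blue points are B6, and black bars are means of log2 values. The lens genes average 5.78 and 8.11 in 129 and 5.09 and 5.25 in B6 on the log2 scale.

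Some microglial and macrophage genes were lower in 129 retinas, while most did not pass. Of 43 measured, 15 were lower (34.9%, against 5.83% of all genes) and none was higher, with a median of -0.27 against 0.01 over all probe sets, and 11 to 15 were lower without any single array. C1qb, which encodes 1 of the chains of C1q, the starter of the classical complement pathway, had intensities of 54.2 and 62.9 in 129 and 187 and 152 in B6 (log2 difference -1.53, SE 0.12, adjusted p = 1.20e-05). C1qa had 75.0 and 73.4 in 129 and 165 and 159 in B6 (-1.13, SE 0.08, adjusted p = 6.32e-06), and C1qc had 41.5 and 37.0 in 129 and 72.9 and 71.3 in B6 (-0.88, SE 0.09, adjusted p = 1.25e-04). The 3 C1q chains thus moved together, each with 129 arrays below all B6 arrays, which being steady requires. Fcer1g and Tyrobp, adapters of activating immune receptors, differed by -1.02 (SE 0.13) and -0.79 (SE 0.08), and Csf1r, the receptor on which microglia depend, had 248 and 237 in 129 and 332 and 311 in B6 (-0.41, SE 0.08, adjusted p = 0.00645). Cx3cr1, the fractalkine receptor and a defining marker of microglia, did not share the difference, with 64.5 and 64.7 in 129 and 66.3 and 63.3 in B6 (0.00, SE 0.11, adjusted p = 0.986). Aif1, another marker, was near background, at 15.6 and 13.9 in 129 and 23.2 and 22.4 in B6 (-0.63, SE 0.11, adjusted p = 0.00342). After centring on housekeeping genes, 10 genes of the list were lower and 4 were higher. In the T cell and erythrocyte lists 7.69% and 12.5% were lower, against 5.83% of all genes. T cell genes were lower at 1 of 13 (Cd8a, -0.36) and erythrocyte genes at 1 of 8 (Bpgm, -0.41), with none higher, and neither gene passed without replicate 2 of 129.

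The complement genes overlapped with this list through C1q but reached beyond it. Of 16, 6 were lower in 129 (37.5%, against 5.83% of all genes) and none was higher (against 5.41%), with a median of -0.15. The median was 0.05 after centring on housekeeping genes, with the 6 genes still lower. Cfi, the protease that inactivates C3b and C4b, had 50.3 and 45.1 in 129 and 116 and 123 in B6 (log2 difference -1.32, SE 0.10, adjusted p = 1.10e-05), and Cd59a stood at -1.65 as given above. Serping1, the inhibitor of C1, had 104 and 157 in 129 and 244 and 187 in B6 (-0.74, SE 0.19, adjusted p = 0.0303) and did not pass without replicate 1 of 129 (adjusted p = 0.209) or without replicate 1 of B6 (adjusted p = 0.18).

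Among 50 interferon-inducible genes, 15 (30.0%, against 5.83% of all genes) were lower in 129, none was higher (against 5.41%), and the median was -0.18. Oasl2, a member of the oligoadenylate synthetase family, had intensities of 17.0 and 11.3 in 129 and 105 and 70.0 in B6 (log2 difference -2.63, SE 0.21, adjusted p = 1.45e-05). Ifit1, which binds foreign RNA, had 24.3 and 21.0 in 129 and 55.0 and 53.2 in B6 (-1.26, SE 0.11, adjusted p = 2.65e-05). Ifitm3, which restricts the entry of viruses, had 91.8 and 152 in 129 and 357 and 294 in B6 (-1.46, SE 0.20, adjusted p = 7.43e-04). These transcripts were of low to middle level, and all 129 arrays lay below all B6 arrays, which being steady requires. Usp18, Rtp4 and Ifih1 were lower too, at -1.11, -1.06 and -0.61, as was 1 probe set of Rsad2, at -0.83. The study lists another probe set of Rsad2 as slightly higher in 129 normal retina. Xaf1 was lower at 1 probe set (-1.49) but its other probe set stood at 2.02, so it counts among the 15 but no direction is given for the gene. Centring on housekeeping genes left 13 genes lower and made 5 higher, with a median of 0.02.

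The interferon-induced GTPases of the GBP and IRG families attack the vacuoles of intracellular pathogens. Of 13, 5 were lower (38.5%, against 5.83% of all genes) and 1 was higher (7.69%, against 5.41%), with a median of -0.29. Igtp had 61.6 and 66.4 in 129 and 155 and 136 in B6 (log2 difference -1.18, SE 0.08, adjusted p = 6.21e-06), Gbp2 had 16.4 and 20.2 in 129 and 53.5 and 50.5 in B6 (-1.52, SE 0.16, adjusted p = 1.27e-04), and Gbp3 had 30.4 and 27.7 in 129 and 62.5 and 50.8 in B6 (-0.96, SE 0.10, adjusted p = 1.65e-04). Gbp2b, a close relative and a neighbour of Gbp2 on the chromosome, went the other way, with 30.0 and 39.1 in 129 and 13 and 18.8 in B6 (1.13, SE 0.19, adjusted p = 0.00274). Genes of this family are similar in sequence, and a probe set may read more than 1 of them.

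Some genes of peptide processing and class I molecules were lower as well. Of all genes, 5.83% were lower in 129 and 5.41% higher. Of 28 genes of antigen presentation, 11 were lower (39.3%) and none was higher, with a median of -0.28, but 6 were lower without replicate 1 of 129 and 7 without replicate 2 of 129. B2m, the light chain of class I molecules, had 324 and 398 in 129 and 953 and 669 in B6 (log2 difference -1.15, SE 0.16, adjusted p = 7.10e-04), and its other probe set gave -1.21. Psmb8, a subunit of the immunoproteasome, had 45.2 and 48.9 in 129 and 101 and 79.8 in B6 (-0.93, SE 0.13, adjusted p = 0.00105), although its other probe set stood at 0.13, and Erap1, which trims peptides, had 31.5 and 31.5 in 129 and 51.6 and 52.3 in B6 (-0.72, SE 0.08, adjusted p = 1.47e-04). H2-K1 and other class I heavy chains differ in sequence between strains of mice and their probe sets may read them unequally. H2-K1 stood at -0.43 (SE 0.11, adjusted p = 0.0288), and the peptide transporter genes Tap1 and Tap2 did not pass.

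The promoters of these genes are shown because the interferon-stimulated response element, read here as GAAANNGAAA on either strand, is the sequence through which interferons induce transcription of many of them. The windows are RefSeq's for GRCm38.p6, 300 bases around the start of the gene, and capitals mark the element.
Ifit1, chr19:34640639-34640938, plus strand: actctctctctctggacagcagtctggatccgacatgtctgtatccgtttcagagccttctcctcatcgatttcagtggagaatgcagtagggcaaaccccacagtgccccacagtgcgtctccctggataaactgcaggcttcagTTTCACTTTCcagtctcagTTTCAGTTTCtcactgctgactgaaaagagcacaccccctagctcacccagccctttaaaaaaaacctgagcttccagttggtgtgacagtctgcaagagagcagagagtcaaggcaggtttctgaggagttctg
Igtp, chr11:58199306-58199605, plus strand: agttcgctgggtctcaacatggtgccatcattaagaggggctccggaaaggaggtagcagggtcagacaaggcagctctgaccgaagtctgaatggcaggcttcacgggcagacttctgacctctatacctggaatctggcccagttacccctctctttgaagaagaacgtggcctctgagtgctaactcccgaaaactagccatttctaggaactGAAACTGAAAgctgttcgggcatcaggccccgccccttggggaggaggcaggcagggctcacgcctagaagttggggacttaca
Gbp2, chr3:142620413-142620712, plus strand: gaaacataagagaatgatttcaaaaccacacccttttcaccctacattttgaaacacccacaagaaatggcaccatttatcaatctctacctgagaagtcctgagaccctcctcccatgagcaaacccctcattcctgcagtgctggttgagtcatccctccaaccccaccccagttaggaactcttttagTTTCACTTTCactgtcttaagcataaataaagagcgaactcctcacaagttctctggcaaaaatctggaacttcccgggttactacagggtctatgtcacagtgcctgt
B2m, chr2:122147437-122147736, plus strand: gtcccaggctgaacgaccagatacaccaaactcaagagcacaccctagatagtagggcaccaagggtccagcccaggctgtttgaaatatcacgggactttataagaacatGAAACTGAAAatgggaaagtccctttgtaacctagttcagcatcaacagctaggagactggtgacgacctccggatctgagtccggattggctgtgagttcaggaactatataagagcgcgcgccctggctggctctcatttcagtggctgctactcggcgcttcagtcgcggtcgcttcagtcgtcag
The element occurred in the windows of 3.99% of 27025 genes. It was found in 15 of the 36 interferon-inducible genes with a window and in 7 of the 8 GBP and IRG genes, but in 2 of 18 genes of antigen presentation and 2 of 32 of microglia. Of the interferon-inducible genes lower in 129 at the probe set read for the list, 7 of 12 held it (Ifitm3, Ifit1, Rsad2, Ifit3, Ifih1, Bst2 and Trim21). Of those not lower, 8 of 24 did. Oasl2, with the largest difference, had no match in its window. A match is a description of these letters only, and the sequence is that of the reference strain.

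In explants at 3DIV with vehicle the lists parted. There, the microglial and macrophage list had 26 genes lower in 129 and 1 higher (median -0.73), against 10.2% of all 18193 genes lower and 10.8% higher there. Interferon-inducible genes, none of which was higher in the normal retina, were higher in 129 explants for 17 and lower for 8 (median 0.00), and the GBP and IRG genes were higher for 8 and lower for 1 (median 0.62). Of the antigen-presenting genes 2 were higher and 1 lower. With CHIR99021, 10.9% of all probe sets passed in either direction. In this group 23 microglial and macrophage genes were lower and none was higher. But interferon-inducible genes were lower for 14 and higher for 4 (median -0.15), and GBP and IRG genes were lower for 3 and higher for 4 (median -0.09). Igtp stood at 0.30 and Gbp3 at 1.52 with vehicle, and the change of the strain difference was 1.48 (adjusted p = 1.68e-04) and 2.48 (adjusted p = 2.66e-05). Both genes were named for a difference in normal retina, a value that enters this change. Gbp2b, at 974 and 780 in 129 explants against 17.1 and 18.9 in B6 explants, differed by 5.60 (adjusted p = 3.70e-08). C1qb stood at -1.42 with vehicle (change 0.11, adjusted p = 0.797).

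**Figure D4:**
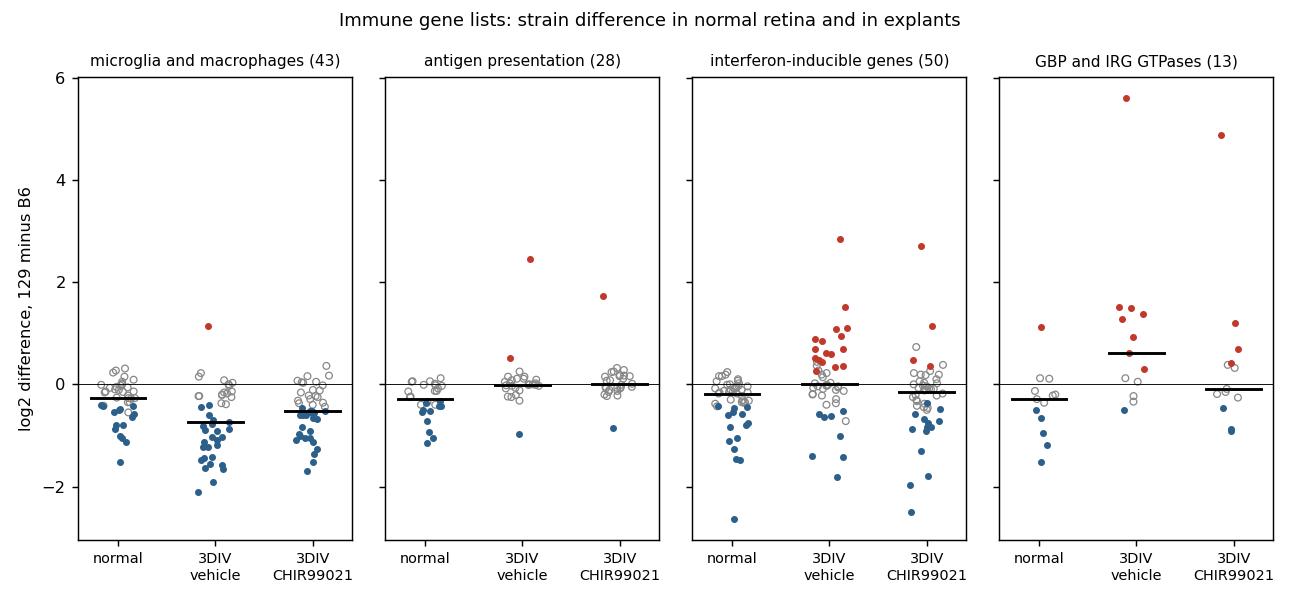
Strain difference of immune genes in normal retina and in explants. The vertical axis is the log2 difference of 129 minus B6, each point is 1 gene, filled points passed (red higher, blue lower in 129), open points did not, and black bars are medians. The medians of the GBP and IRG list are -0.29 in normal retina and 0.62 at 3DIV with vehicle, and those of microglia and macrophages -0.27 and -0.73.

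Genes listed for reactive gliosis, the response of Müller glia to injury, differed in both directions. Of 23, 4 were higher (17.4%, against 5.41% of all genes) and 7 were lower (30.4%, against 5.83%), with a median of -0.32. Edn2, an endothelin released by stressed photoreceptors, had intensities of 36.9 and 48.8 in 129 and 348 and 280 in B6 (log2 difference -2.88, SE 0.14, adjusted p = 4.38e-07), while Ednrb, a receptor of endothelins, had 141 and 161 in 129 and 68.9 and 67.7 in B6 (1.14, SE 0.09, adjusted p = 1.41e-05). The ligand and the receptor thus stood in opposite order at these probe sets, while the other 2 probe sets of Ednrb stood at 0.17 and 0.93. Lcn2, a siderophore-binding lipocalin, had 52.2 and 61.7 in 129 and 192 and 163 in B6 (-1.64, SE 0.16, adjusted p = 8.29e-05), Cebpd, a transcription factor of the acute phase, had 88.3 and 101 in 129 and 275 and 278 in B6 (-1.55, SE 0.08, adjusted p = 4.95e-07), and Osmr, the oncostatin M receptor, had 76.7 and 82.9 in 129 and 184 and 154 in B6 (-1.08, SE 0.09, adjusted p = 2.95e-05). The other probe sets of Cebpd and Osmr did not share this, at -0.21 and at 0.01 and 0.12. Lgals3, galectin 3, had 239 and 209 in 129 and 61.8 and 55.2 in B6 (1.93, SE 0.12, adjusted p = 2.45e-06), and Serpina3n, a protease inhibitor of reactive glia, had 175 and 192 in 129 and 79.0 and 98.0 in B6 (1.06, SE 0.11, adjusted p = 1.47e-04). Gfap, the filament protein of reactive glia, had 44.3 and 56.9 in 129 and 65.4 and 64.3 in B6 and did not pass at its most abundant probe set (-0.37, SE 0.18, adjusted p = 0.225), whereas its other probe sets did (-0.90, adjusted p = 0.0147, and -0.78, adjusted p = 0.0231).

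Genes of Müller glia were found on both sides of 0. Of 33, 3 were higher (9.09%, against 5.41% of all genes) and 3 lower (9.09%, against 5.83%), with a median of 0.06, and Spc25 and Ptgds were among the 3 lower. Kcnj10, the inward rectifier through which Müller cells clear potassium, had 798 and 911 in 129 and 416 and 458 in B6 (log2 difference 0.97, SE 0.11, adjusted p = 2.90e-04), and Aqp4, the water channel found beside it at the endfeet, had 1628 and 1729 in 129 and 1217 and 1161 in B6 (0.50, SE 0.13, adjusted p = 0.0338). Clu, a secreted chaperone, had 4289 and 4741 in 129 and 6560 and 6501 in B6 (-0.53, SE 0.08, adjusted p = 9.58e-04). Glul (0.06), Rlbp1 (0.29) and Slc1a3 (0.29) did not pass, at adjusted p of 0.655, 0.157 and 0.0531. The 3 higher numbered 1 without replicate 2 of 129 or without any single array of B6 at 3DIV with vehicle, and 5 without any single array of 129 at 3DIV with CHIR99021. Ccnd1, cyclin D1, was lower in 129 at 242 and 264, against 419 and 330 in B6 (-0.56, SE 0.13, adjusted p = 0.0195), and did not pass without replicate 1 of B6 (adjusted p = 0.131) or without replicate 1 (0.12) or 2 (0.051) of 129, and its other probe sets stood at -0.64 and -0.16. At 3DIV with vehicle Ccnd1 stood at 0.83, a change of 1.39 (adjusted p = 0.00443). Ccnd3 had 290 and 308 in 129 and 280 and 320 in B6 (0.00, SE 0.10, adjusted p = 0.995).

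Photoreceptor genes differed in both directions. Rod genes were higher for 2 of 29 (6.90%, against 5.41% of all genes) and lower for 5 (17.2%, against 5.83%), with a median of -0.04, and the 5 numbered 2 without replicate 1 of either strain and 3 without replicate 2 of either strain. Abca4, the transporter of retinoid in outer segments, had 2334 and 2014 in 129 and 4259 and 4270 in B6 (log2 difference -0.98, SE 0.13, adjusted p = 6.73e-04), and Guca1b, an activator of guanylate cyclase, had 9404 and 9263 in 129 and 13459 and 13542 in B6 (-0.53, SE 0.08, adjusted p = 0.00157). Gucy2e, a cyclase that restores cGMP, had 101 and 110 in 129 and 43.0 and 53.0 in B6 (1.14, SE 0.14, adjusted p = 4.10e-04). In the cone list 1 of 15 genes was lower (6.67%, near the 5.83% of all genes) and no other gene passed. That gene was Nxnl1, the source of the cone viability factor that is derived from rods. Nxnl1 had 478 and 445 in 129 and 1877 and 1839 in B6 (-2.01, SE 0.08, adjusted p = 9.01e-08), whereas its other probe set stood at 0.51. Opn1mw, the medium-wave opsin, had 881 and 1002 in 129 and 1593 and 1561 in B6 and did not pass (-0.75, SE 0.24, adjusted p = 0.0683), and Opn1sw, the short-wave opsin, had 4647 and 4395 in 129 and 4669 and 3656 in B6 (0.13, adjusted p = 0.854).

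Inner retinal neurons differed at few genes of each list, read against 5.41% of all genes higher in 129 and 5.83% lower. Amacrine genes were higher for 3 of 25 (12.0%) and lower for 3 (12.0%). Ganglion cell genes were higher for 2 of 23 (8.70%) and lower for 4 (17.4%). After centring on housekeeping genes, 8 amacrine genes were higher and 1 lower, and 7 ganglion cell genes were higher and 1 lower. Bipolar genes were higher in 129 for 3 of 20 and lower for none, namely Cabp5 (0.44), Bhlhe23 (0.39) and Scgn (0.27), and none of them passed without replicate 1 of 129 or without its replicate 2. Th, the tyrosine hydroxylase of dopaminergic amacrine cells, had 123 and 126 in 129 and 76.3 and 76.5 in B6 (log2 difference 0.71, SE 0.08, adjusted p = 2.53e-04). Rbpms, an RNA-binding marker of ganglion cells, had 354 and 364 in 129 and 257 and 235 in B6 (0.55, SE 0.10, adjusted p = 0.00519), while Nefh, the heavy neurofilament of their axons, had 754 and 825 in 129 and 1090 and 1128 in B6 (-0.49, SE 0.09, adjusted p = 0.0036). Markers of the same cell type were thus found on both sides of 0. Synaptic genes were higher for 5 of 44 (11.4%) and lower for 1, led by Slc17a7, the vesicular glutamate transporter of photoreceptors and bipolar cells, at 814 and 858 in 129 and 397 and 459 in B6 (0.97, SE 0.13, adjusted p = 8.02e-04), and the 5 numbered 3 without replicate 1 of 129 or without replicate 2 of B6. Gria2, an AMPA receptor subunit, stood at 0.46 (SE 0.08) and at 0.31 and 0.42 at its other probe sets. Horizontal cell genes were higher for 1 of 8, the transcription factor gene Onecut2 (0.45), which did not pass without replicate 1 of either strain.

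The remaining lists are given against the 5.41% of all genes that were higher in 129 and the 5.83% that were lower. Genes of the vessels were higher for 2 of 29 (6.90%) and lower for 4 (13.8%), those of the ciliary body, iris and cornea were higher for 2 of 25 and lower for 1, near those shares, and those of the circadian clock were higher for 1 of 24 (4.17%) and lower for 2 (8.33%). Cholesterol genes were higher for 3 of 26 (11.5%), genes of the heat shock and unfolded protein response were higher for 1 of 28 (3.57%) and lower for 2 (7.14%), and ribosomal proteins were lower for 4 of 38 (10.5%). Of the interferon-inducible p200 family, 1 of 8 was higher (12.5%) and 1 lower (12.5%), and of the TRIM5-like cluster, 2 of 9 were lower (22.2%). Most of these counts changed by more than 1.5 times without 1 array or another.

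**Figure D5:**
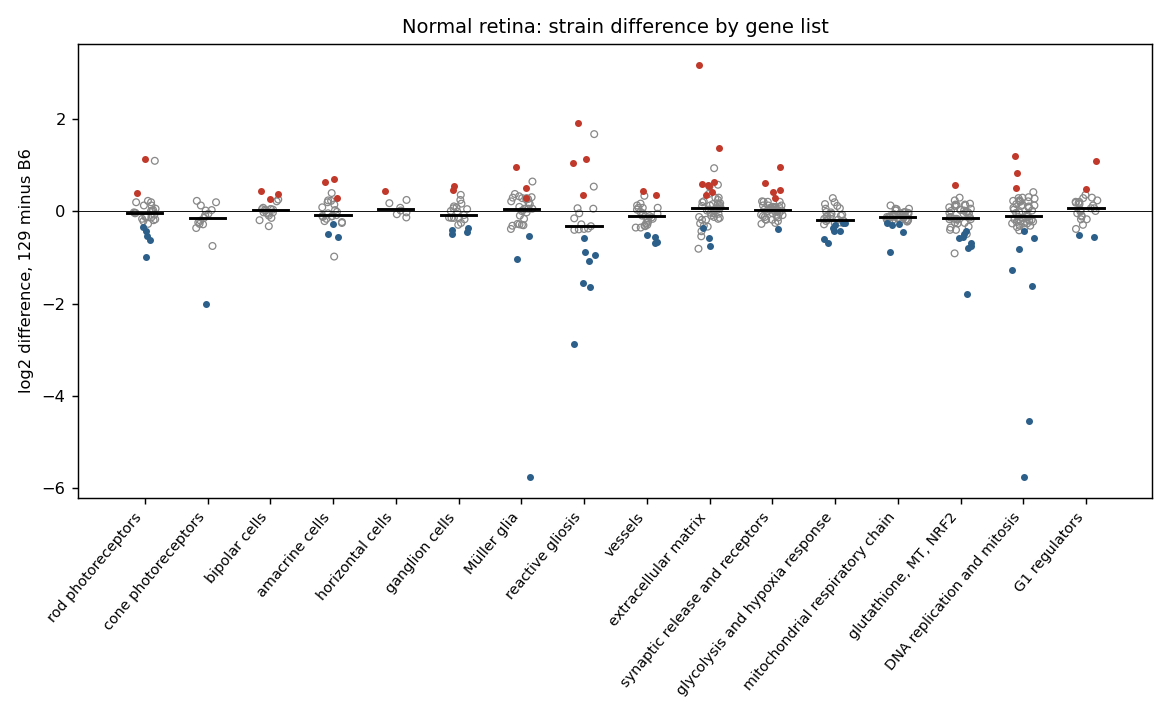
Strain difference in normal retina by gene list. The vertical axis is the log2 difference of 129 minus B6, each point is 1 gene at its most abundant probe set, filled points passed (red higher, blue lower in 129), open points did not, and black bars are medians. The medians of the 6 neuron classes lie between -0.14 and 0.05, and single genes such as Spc25 at -5.77 lie far from them.

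Collagen IV stood out among genes of the extracellular matrix. Its chains assemble into trimers in basement membranes, including the inner limiting membrane, the vessels and the lens capsule. Of 50 matrix genes, 8 were higher in 129 (16.0%) and 3 lower (6.00%), with a median of 0.06, and 5 of the 8 were collagen IV chains. Col4a4, which trimerizes with Col4a3 and Col4a5 and lies beside Col4a3, had 173 and 212 in 129 and 74.1 and 72.9 in B6 (log2 difference 1.38, SE 0.12, adjusted p = 2.50e-05), with 1.16 and, not passing, 0.51 at its other probe sets. Col4a5 had 236 and 299 in 129 and 183 and 167 in B6 (0.60, SE 0.10, adjusted p = 0.00323), Col4a1 had 436 and 561 in 129 and 349 and 313 in B6 (0.58, SE 0.11, adjusted p = 0.00738), and Col4a2 had 249 and 300 in 129 and 199 and 174 in B6 (0.55, SE 0.11, adjusted p = 0.00956). Replicate 2 of 129, the array with the crystallins, was the higher of the 129 arrays for all 5, and replicate 1 also lay above both B6 arrays. Col4a6 was lower, with 32.4 and 35.1 in 129 and 48.4 and 52.6 in B6 (-0.58, SE 0.11, adjusted p = 0.00493). The 8 higher genes numbered 4 without replicate 2 of 129 and 5 without replicate 2 of B6, and the 3 lower numbered 6 without replicate 2 of 129. At 3DIV with vehicle, Col4a3 and Col4a4 stood at 1.57 and 1.40, and Col4a1, Col4a2 and Col4a5 at -0.16, 0.00 and -0.08.

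Genes of energy metabolism and of defense against oxidation that passed were mostly lower in 129, but this direction turned with the centring. Of all genes, 5.83% were lower and 5.41% higher. The shares lower and higher were 11.6% and 0% for mitochondrial respiration, 17.4% and 2.17% for the glutathione list, and 20.7% and 6.90% for immediate early genes. Of 31 genes of glycolysis and the response to hypoxia, 8 were lower (25.8%) and none was higher, with a median of -0.18, but only 2 were lower without replicate 1 of 129 or without replicate 2 of B6, and 2 were lower and 4 higher after centring on housekeeping genes. Hk2, the hexokinase of photoreceptors, had 2836 and 3295 in 129 and 4676 and 5148 in B6 (log2 difference -0.68, SE 0.10, adjusted p = 0.0015), and Pkm, pyruvate kinase, had 3068 and 3229 in 129 and 4558 and 4916 in B6 (-0.59, SE 0.07, adjusted p = 3.39e-04). Of 43 genes of mitochondrial respiration, 5 were lower (Nnt, Cox7c, Sdha, Ndufb10 and Ndufb9, led by Nnt at -0.89) and none higher, while 2 were lower and 5 higher after centring on housekeeping genes, and 1 to 3 were lower without any single array of normal retina or of B6 at 3DIV with vehicle. Of 46 genes of glutathione, metallothioneins and the NRF2 response, 8 were lower and 1 was higher (6 lower and 8 higher after that centring), and the 8 numbered 3 without replicate 1 of B6 and 5 without replicate 1 of 129. Gpx3, a secreted glutathione peroxidase, had 177 and 327 in 129 and 1196 and 576 in B6 (-1.79, SE 0.31, adjusted p = 0.00357), and its arrays differed widely within each strain. Mt3, the metallothionein of the nervous system, had 116 and 130 in 129 and 213 and 201 in B6 (-0.75, SE 0.13, adjusted p = 0.00354). Immediate early genes were lower for 6 of 29 and higher for 2, the 6 numbering 1 without replicate 1 of 129 or without replicate 2 of B6.

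Genes of cell cycle entry were found in both directions. Regulators of G1 were higher for 7.69% and lower for 7.69%, near the shares of all genes (5.41% and 5.83%). Of 26 regulators of G1, 2 were higher and 2 lower, with a median of 0.07, and of the 2 lower (Ccnd1 and Cdkn2c) none passed without replicate 1 of 129 and 1 without replicate 1 of B6. Rb1, the retinoblastoma protein, had 1302 and 1259 in 129 and 598 and 602 in B6 (log2 difference 1.09, SE 0.09, adjusted p = 1.57e-05), although its other probe set stood at -0.07, and Rbl2, a relative of it, had 449 and 528 in 129 and 347 and 345 in B6 (0.49, SE 0.08, adjusted p = 0.00337), with 0.95 at its other probe set. Cdt1, which licenses origins of replication, had 271 and 237 in 129 and 158 and 128 in B6 (0.83, SE 0.15, adjusted p = 0.00441), with other probe sets at 0.02 and 0.83. Mcm6, a subunit of the replicative helicase, had 17.6 and 20.2 in 129 and 72.1 and 47.1 in B6 (-1.63, SE 0.17, adjusted p = 1.13e-04) with other probe sets at -2.16 and 0.20. Of 58 genes of the Wnt and Notch pathways, 3 were higher and 4 lower, near the share of all genes (2 lower without either array of B6 or replicate 1 of 129), and Dll1, a ligand of Notch, had 128 and 131 in 129 and 195 and 184 in B6 (-0.55, SE 0.09, adjusted p = 0.00204). Of 43 chromatin genes, 1 was higher (2.33%, Tet1, 0.38) and 1 lower (2.33%, Hdac1, -0.36), below the shares of all genes. Tet1 did not pass without either array of normal B6 or without replicate 1 of normal 129, and Hdac1 did not pass after centring on housekeeping genes (adjusted p = 0.0996).

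Large strain differences of the normal retina were mostly found again in the explants, which are other arrays in the same fit. All groups share the spread that the fit estimates for a probe set. A probe set of low spread thus passes more readily in every group, so the shares that passed again do not measure independent recurrence. The direction of a difference does not depend on this spread. Of the 5188 probe sets, 57.3% passed in the same direction at 3DIV with vehicle, 39.1% with CHIR99021 (where 10.9% of all passed) and 33.7% in both, and 1.73% passed in the opposite direction with vehicle. Among probe sets that had not passed in the normal retina, 14.9% passed with vehicle in either direction, and 20.0% of all did. The share with the same direction in both explant groups was 19.1% for normal differences below 0.5 on the log2 scale and 38.2% from 0.5 to 1. It was 67.8% from 1 to 2, 89.6% from 2 to 3 and 86.5% above 3. Probe sets of genes whose probe sets all passed in one direction were found again in both explant groups in 47.5% of cases (n = 415), and those that passed alone among several in 28.2% (n = 1705), with median sizes of 0.59 and 0.46 in the normal retina.

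Some of the largest differences were smaller or absent in the explants. The strain difference itself changed at 3DIV with vehicle at 2.58% of all probe sets and at 482 of the 5188 (9.29%), which were chosen by a value that enters this change, so nothing is read from the excess. Hdc had 13.5 and 12.4 in 129 explants and 13.9 and 15.5 in B6 explants with vehicle, so that both strains stood near the level of normal 129, and the difference changed by 2.93 (adjusted p = 1.39e-05). Spc25 stood at -2.32 with vehicle and at -0.61 with CHIR99021, a change of 3.45 with vehicle (adjusted p = 3.90e-05). Edn2 had 1405 and 1593 in 129 explants and 2556 and 2576 in B6 explants, all above the normal arrays, and the difference changed by 2.10 (adjusted p = 6.01e-04) to -0.78. Cd59a, in contrast, stood at -1.63 with vehicle and -1.65 with CHIR99021.

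Genes that differed often lay beside one another. Of 18030 genes placed in the order of RefSeq on GRCm38.p6, 2035 passed, and 29.8% of these had an adjacent measured gene that passed, against 19.6% of genes that had not passed. The neighbour had passed in the same direction for 19.1% and in the opposite direction for 12.3%. The longest run was of 8 genes, Capn3 (-0.54), Zfp106 (0.48), Snap23 (0.81), Lrrc57 (0.72), Haus2 (-0.47), Stard9 (0.97), Cdan1 (0.87) and Ttbk2 (0.40), in both directions. These genes were named after their values were seen. A further run of 6 held Bst2 (-0.55), an interferon-inducible gene, and Nxnl1 (-2.01). Of neighbours that differed by at least 2-fold, Col4a4 and Col4a3 were both higher, Zfp429 (-1.86) and Zfp874a were both lower, and Gbp2b and Gbp2 stood in opposite directions.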

How the data were processed

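RNA from 12 samples, 2 in each of 6 groups, had been hybridized to 1-colour arrays. The authors made the deposited intensities with RMA (version not given in the sources used here), which corrects background, brings the arrays to a common distribution and summarises each probe set, and deposited them on the linear scale. Values were converted to log2 and 64 control probe sets removed. Group means were fitted over all 12 arrays with lmFit and eBayes of limma 3.58.1 in R 4.3.3 (6 residual and 4.69 prior degrees of freedom), p-values were adjusted by Benjamini-Hochberg over 45037 probe sets, and contrasts were taken between strains and between strain differences. A gene symbol was unique for 34945 probe sets, and 9160 had none. In lists, a gene was read at its most abundant probe set. The fit was tested on simulated data. Figures were drawn with matplotlib 3.10.9 in Python 3.11.15. The number of arrays limits the precision.

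Genes were named where all of their probe sets, 1 of several, or an only probe set passed steadily with the largest differences. Others led a list, defined a cell type, were named in the study's text, or differed most between arrays of a strain. Not all genes of the study's text are given above. Hmga2, Mbd1 and Nes did not pass at their most abundant probe sets (limma adjusted p = 0.0972, 0.524 and 0.129). Lin28a was lower in 129 at 1 probe set (-0.61, limma adjusted p = 0.00394) and stood at -0.07 at its other. The members and the 37 gene lists were chosen with earlier results of these data known. Alternatives were another normalization, centring, filter, variance model, adjustment, a replicate block, the 4 normal arrays alone and leaving out each array.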

Additional observations from a re-analysis of the deposited data

Results flagged for a closer look

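The strain difference itself changed in explants at 3DIV with vehicle, relative to normal retina, at 29 named probe sets, by a limma test of the change, with adjusted p-values of 1.39e-05 to 0.0455. Values here are the strain difference at 3DIV minus that in normal retina, on the log2 scale. These probe sets were named for large differences in normal retina, a value that enters this change. Smaller differences at 3DIV were thus favored by the choice, and nothing is read from their number.

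Of the genes higher in 129 normal retina, Col4a3 changed by -1.62 and -1.29 at its probe sets, Fn1 by -0.84 and -1.41, Tmem26 by -1.82, Cmtm5 by -1.14, Rskr by -0.75, Spata9 by -2.82 and Rtkn2 by -1.27. Map1b, higher in 129 at 1 probe set, changed by 0.82 there, to a larger difference.

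Of the genes lower in 129 normal retina, Spc25 changed by 3.45 and 1.18, Pttg1 by 0.87, 1.52 and 1.75, Hdc by 1.44 and 2.93, Ppara by 2.06 and 1.19, Synm by 1.22 and 1.91, and Gbp2 by 1.18 and 1.12. Edn2 changed by 2.10, Gm10033 by 1.16, Eps8l1 by 0.79 and Abhd14a by 0.51. Etnppl and Gm4792 changed by -0.93 and -0.91, to larger differences than in normal retina.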

How the results depend on the processing

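No named probe set reversed in direction under the alternatives run, but splits did. Many named probe sets were chosen as steady, so leaving out 1 array could not have lost or reversed these. This choice also keeps the number of named probe sets lost, given below, low. The 2735 higher and 2453 lower probe sets became 2527 and 2685 under cyclic loess and 1676 and 1683 without replicate 2 of normal 129. The 5188 probe sets that passed in normal retina numbered 2934 with the 4 normal arrays alone, 14828 after centring on housekeeping genes, and 732 when at least a 2-fold difference was also asked. Leaving out 1 array gave 3083 to 5060, with 3083 without replicate 1 and 3359 without replicate 2 of normal 129. At 3DIV, 9005 with vehicle ranged from 4860 to 9382 and 4904 with CHIR99021 from 2694 to 5252 without 1 array. The change of the strain difference passed at 1161 probe sets, at 1856 among probe sets above the median level, at 2440 with a trended and robust variance, and at 352 to 1138 without 1 array. The cause of these shifts was not tested.

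The replicate block gave 2516 higher and 2275 lower probe sets in normal retina, within 1.5 times the counts without it, and moved 7 of 74 list counts. Same-numbered arrays deviated together by correlations of only -0.11 to 0.04, so the numbers were not taken to pair the samples. A blocked fit lost 1 named gene, Pax6 (adjusted p = 0.0667). Of 154 named probe sets that passed, 14 were lost in at least 1 alternative. Cryba1 (adjusted p = 0.089) and Cryaa (0.0662) did not pass with the 4 normal arrays alone. Of 25 lists with a median below 0, 20 had one above 0 after centring on housekeeping genes, and cyclic loess turned the sign of the circadian clock list alone (0.01 and -0.01).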

Other observations

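A few probe sets differed widely between the arrays of 1 strain. A probe set of Nudt21, a subunit of a pre-mRNA cleavage factor, had 216 and 242 in normal 129 and 36.2 and 266 in normal B6, and ranged from 21.6 to 222 over the explants, whereas another probe set of the gene had 909 and 912 in 129 and 895 and 931 in B6. A probe set of Prph2, the outer segment protein peripherin 2, had 669 and 3520 in 129 and 419 and 1224 in B6, and a probe set shared by Xlr4a, Xlr4b and Xlr4c had 15.8 and 18.4 in 129 and 12.6 and 107 in B6.

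Probe sets to which the annotation gave no gene also differed, and 197 higher and 202 lower ones were steady in the sense given above. Probe set 1437523_s_at had 460 and 420 in 129, against 7.41 and 6.60 in B6 (log2 difference 5.97, SE 0.10, limma adjusted p = 2.10e-10), and 1459043_at differed by 3.56. Probe set 1442424_at had 7.39 and 6.15 in 129, against 208 and 214 in B6 (-4.97, SE 0.18, limma adjusted p = 5.46e-08), and 1431213_a_at differed by -4.60.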
